A study of Mus musculus with 2 samples.

Results

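The cytosolic ribosomal protein genes are described here on 2 Agilent arrays. The members were taken by name, as every non-control probe whose gene symbol on the array follows the standard form for cytosolic ribosomal proteins (Rpl or Rps and a number, or Rplp and a number, with an optional final a, x or l). This gave 80 genes, read by 174 of the 56605 probes and by 750 of the 59305 non-control spots of each array. There were 43 genes of the large subunit with 94 probes, 29 genes of the small subunit with 69 probes, the 3 stalk genes Rplp0, Rplp1 and Rplp2 with 5 probes, and 5 paralogs whose symbols end in l (Rpl3l, Rpl10l, Rpl39l, Rps27l and Rps4l) with 6 probes. Genes whose symbols have another form, such as Rpsa, Rps3a1 and Fau, fall outside the name rule and are described only as part of a neighbouring list.

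The study asked which genes mediate the antiproliferative effect of the β-catenin pathway in mDE6, a line of odontogenic epithelial cells from the mouse. CHIR99021 inhibits GSK-3, a kinase that marks β-catenin for destruction, so that β-catenin accumulates. Total RNA was labelled with the single dye Cy3, and 1 array was hybridised for vehicle cells and 1 for CHIR99021 cells, both at 6 h. The vehicle label reads "0/1%DMSO", whereas the Methods call the control cells untreated, and the label gives CHIR99021 at 5 mM, whereas the Methods give 5 μM. With 1 array a group there was no replicate of any kind, so that no difference below has a test, and both arrays lay on 1 slide. Signals were not saturated on either array, and 49.8% of the spots of the vehicle array and 48.3% of those of the CHIR99021 array were well above background. The labelled cell type was checked against its markers. Of 7 epithelial markers, Trp63 and Krt14 were well above background on both arrays, with signals of 2306 and 48.5 on the vehicle array and 2896 and 54.6 on the CHIR99021 array. Krt18 was so only on the vehicle array and Krt5 only on the CHIR99021 array, and Krt8, Cdh1 and Epcam were so on neither. The summed signal of the 7 was 2402 and 3154. All 6 mesenchymal markers were well above background, with a summed signal of 462443 and 421027 and Col1a2 at 270783 and 242601. The sums are of different probes and do not compare the amounts of these mRNAs.

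Cytosolic ribosomal proteins are built with rRNA into a small subunit, which reads the mRNA, and a large subunit, which joins amino acids into the chain. Their mRNAs are among the most abundant of a growing cell and their genes are commonly transcribed in step. Most of these mRNAs begin with a terminal oligopyrimidine tract (TOP), an unbroken run of C and T in the DNA starting with C, through which mTOR signalling controls their translation rather than their amount. New ribosomes also need a separate set of assembly factors in the nucleolus, many of them known targets of Myc.

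The annotated starts of the genes were searched for that tract. In the RefSeq promoter table of build GRCm38.p6, 59 of the 80 genes were found, with 71 promoters. A TOP-like start was taken as C at the annotated start followed by C or T without a break over at least 5 bases in all, read on the strand of the gene. It was present in 13 of the 71 promoters (18.3%), against 823 of all 32851 promoters (2.51%) and 5 of 23 promoters (21.7%) of a list of other genes drawn up for TOP mRNAs. A run of C or T of at least 8 bases within 30 bases on either side of the start was present in 50.7% of the members' promoters, in 43.5% of those of that list and in 22.9% of all promoters. Read on the opposite strand, such a run was present in 12.7%, 26.1% and 25.8%. The starts of 4 genes with a TOP-like start are shown because their log2 ratios were the 2 highest and the 2 lowest of the 13. Each is 30 bases, from 10 before the annotated start, with the pyrimidine run from the start in capitals.

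Rplp2 (chr7:141447641-141447670, plus strand): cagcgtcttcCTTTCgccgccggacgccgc
Rpl15 (chr14:18270967-18270996, minus strand): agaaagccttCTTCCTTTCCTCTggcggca
Rpl35a (chr16:33056472-33056501, plus strand): gcttgccttcCTCTTTCCgccatcttggcg
Rpl35 (chr2:39005112-39005141, minus strand): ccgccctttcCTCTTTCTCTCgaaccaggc

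The 13 genes with a TOP-like annotated start had a median log2 ratio of 0.00 and the 43 measured genes whose promoters had no such start one of 0.01, at the brightest probe of each gene. The promoters of the remaining 21 measured genes were not read, and these genes had a median of -0.0010. The split follows the annotated start to the base. Among the 43, Rpl27a had a run of 16 that began with T at the start, and Rpl7a a run of 21 from 14 bases before it. The medians thus compare annotated starts, and cannot compare mRNAs with and without a TOP. The log2 ratio is CHIR99021 over vehicle, each signal first divided by the 75th percentile of its array (486.7 for vehicle and 469.2 for CHIR99021). Since the CHIR99021 array had the lower 75th percentile, a probe with a slightly lower unscaled signal on it can have a log2 ratio above 0. Signals given below are unscaled, and the signal of a probe is no measure of the amount of its mRNA relative to that of another probe.

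Several genes were read by more than 1 probe, and the probes of a gene did not all read the same thing. Rps12, a small subunit protein known from its part in cell competition in flies, had a pair of probes with no base position in common. The stretches show the first 30 of the 60 bases of each probe, because these probes gave the most different ratios of any gene. Positions are those of the files, in mouse build mm9, and an annotation of that build was not used here, so that exon, intron and UTR are not stated for probes.

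Rps12, RefSeq mRNA NM_011295 (chr10:23505428-23505711, minus strand): aaaggctgatgacaacaagaaactagggga
Rps12, cDNA AK132208 (chr10:23506043-23506102, minus strand): tctactgtttgaggtaaagtcaggtgattt

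The probe of NM_011295 had a signal of 203292 on the vehicle array and 187964 on the CHIR99021 array. The probe of AK132208 had signals of 85.2 and 411. The former probe is placed over 284 bases of the genome, and the latter lies upstream of it on the minus strand.

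In 9 other genes a pair of probes lay on the same stretch of the mRNA, which shows how closely the arrays read 1 stretch with 2 probes. Across these 9 pairs 40 to 59 bases were aligned, with 0 to 5 of them differing. The signals of a pair differed by 1.01-fold to 1.67-fold on the vehicle array, with a median of 1.14-fold. The log2 ratios of a pair differed by 0.00 to 0.07, with a median of 0.04. Stretches of 30 bases of 2 pairs are shown, with the bases that differ within the stretch in capitals.

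Rps20, NM_026147 (chr4:3761620-3761679, minus strand): aagacaactgaataaatcgTcttaatGgtc
Rps20, ENSMUST00000138502 (chr4:3761615-3761674, minus strand): aagacaactgaataaatcgActtaatAgtc
Rpl28, ENSMUST00000032597 (chr7:4746095-4746154, plus strand): agccccacacGccCgaagcaataaagagtc
Rpl28, BC024395 (chr7:4746096-4746155, plus strand): agccccacacCccGgaagcaataaagagtc

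For Rps20 the substitutions were T45A and G52A, counted from 1 at the first of the 55 aligned bases, from the RefSeq to the Ensembl probe. The RefSeq probe of Rps20 had signals of 224190 and 210484 and the Ensembl probe 180281 and 167228, vehicle first. Their log2 ratios were -0.04 and -0.06. For Rpl28 they were G24C, C27G, T56A, T57A and G59A over the 59 aligned bases, from the Ensembl to the cDNA probe, and the last 3 lie outside the stretch shown. The Rpl28 signals were 147217 and 147255 at the Ensembl probe and 109303 and 109037 at the cDNA probe, with a log2 ratio of 0.05 at each. The remaining Rps20 probe, named for the same Ensembl transcript but placed at chr4:3758777-3758836, had signals of 294 and 380 and a log2 ratio of 0.42.

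Of the 174 probes, 165 were well above background on both arrays, none on only 1, and 9 on neither. These 165 probes covered 77 of the 80 genes. The probes were then described in 2 classes, drawn after their values were seen. A principal probe was within 10-fold of the brightest probe of its gene, and a dim probe was at least 10-fold below it. There were 149 principal probes, covering all 77 genes, and 16 dim probes of 15 of these genes. On the vehicle array the principal probes had signals from 44.8 to 288011 with a median of 80544, which on the scaled level was 7.37 on the log2 scale, or 165 times the 75th percentile of the array. On the CHIR99021 array they ran from 47.8 to 275907 with a median of 81187. The median member probe lay above 98.8% of all tested probes on the vehicle array, and 33 of the 100 brightest probes there were members. Members held 12.4% of the summed probe signal of the vehicle array and 11.9% of that of the CHIR99021 array.

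**Figure D1:**
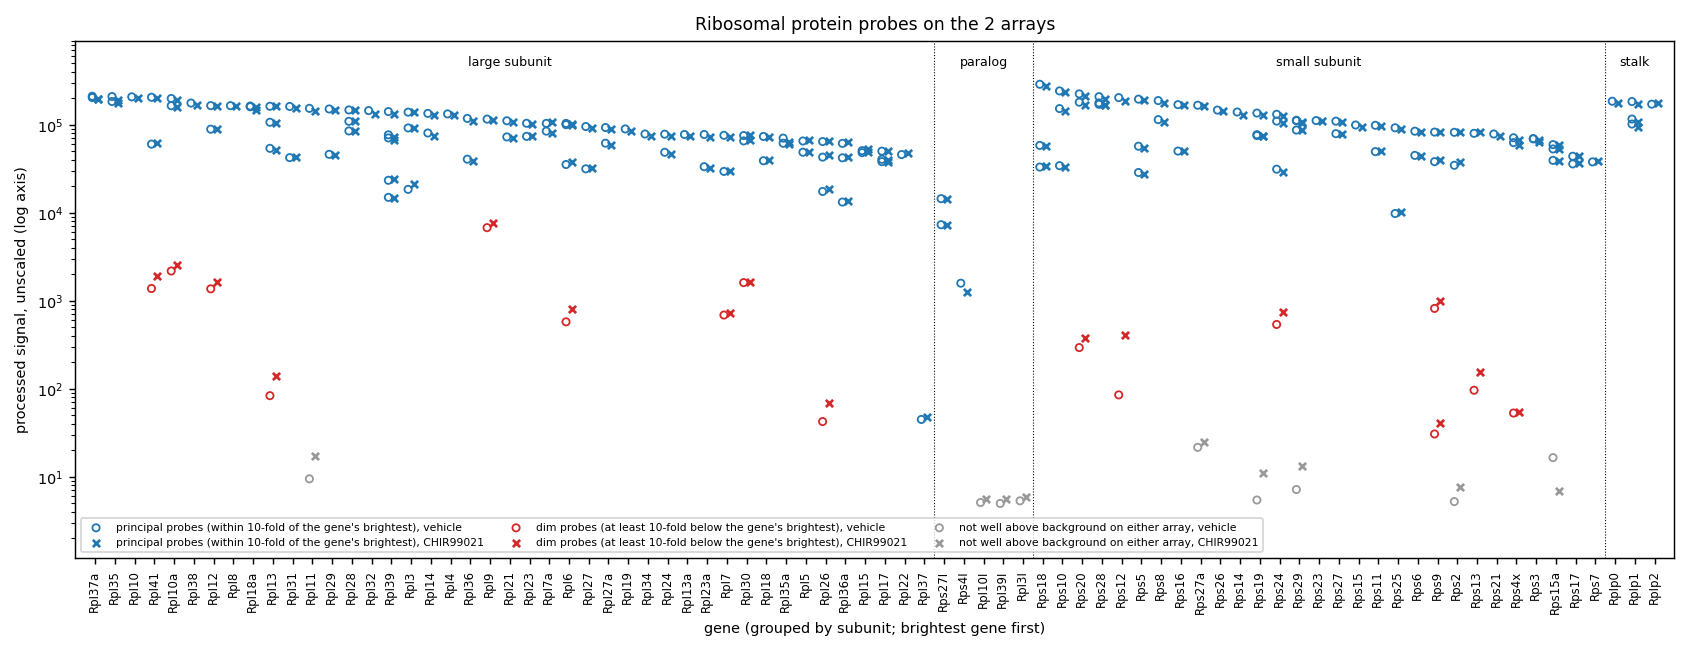
Unscaled processed signal (log axis) of every probe of the 80 genes, by subunit. Open circles are the vehicle array and crosses the CHIR99021 array. Blue probes are within 10-fold of the brightest probe of the gene, red probes are at least 10-fold below it, and grey probes were not well above background on either array. Circle and cross nearly coincide for the blue probes, the red crosses lie above their circles, and Rpl3l, Rpl10l and Rpl39l have only grey points near 5.

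The 3 genes without a measured probe were all paralogs. Rpl3l, the striated muscle paralog of Rpl3, had signals of 5.33 on the vehicle array and 5.85 on the CHIR99021 array. Rpl10l, a testis paralog of Rpl10, had 5.10 and 5.65. Rpl39l, a testis paralog of Rpl39, had 4.98 and 5.55. Each had 1 probe, and none was well above background. Their partner genes were among the bright members. Rpl3, which lies near the catalytic centre of the large subunit, had 138926 and 137782 at its brightest probe, Rpl10 had 207417 and 203485, and Rpl39 had 141003 and 131398. The 6 other probes that were not well above background belonged to Rpl11, Rps2, Rps15a, Rps19, Rps27a and Rps29, each of which had another probe that was.

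The remaining paralogs were measured. Rps27l, a paralog of Rps27 that is known as a target of p53, had signals of 14463 and 14435 at one probe and 7310 and 7196 at the other. Its log2 ratios were 0.05 and 0.03, and those of the probes of Rps27 were 0.00 and 0.04. Rps4l, which the array annotates as a non-coding RNA, had 1 spot with signals of 1583 and 1260 and a log2 ratio of -0.28. This was the lowest ratio of any measured member. The principal probes of Rps4x, its partner, had 71122 and 66916 at one and 62600 and 59243 at the other, with log2 ratios of -0.04 and -0.03.

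The principal probes differed little between the arrays. Since RNA of whole cultures was labelled, fewer cells of a kind and less RNA per cell cannot be told apart in any value here. Their log2 ratios ran from -0.28 to 0.24 with a median of 0.01, an SD of 0.063 and an interquartile range of 0.078, and 92 lay above 0 and 57 below. Their median was -0.022 under quantile normalization, -0.045 under cyclic loess and -0.039 without scaling. It was -0.037 with a percentile taken only over detected probes and -0.032 in the authors' table. Under these 5 alternatives only 36 to 51 of the 149 lay above 0. Under median scaling 121 did, under spike-in scaling 131 and with normexp 84, so the side of 0 depends on the scaling. The median of all 28066 tested probes, those well above background on at least 1 array, was 0.03, with 53.3% above 0, an SD of 0.906 and an interquartile range of 0.474. Bright probes of other genes also had narrower ratios than dim ones, so the members were set beside them. Among probes with a signal of at least 32768 on the vehicle array, the 135 principal member probes had a median of 0.01 and an SD of 0.053, and the 683 other probes a median of 0.04 and an SD of 0.162. A larger share of the members lay at the highest signals, and the difference in SD was smaller at the highest signals. The SD was 0.050 for members and 0.181 for other probes from 32768 to 65536, 0.045 and 0.148 from 65536 to 131072, and 0.040 and 0.074 above 131072. None of these 135 and 2 of these 683 (Pgam1 and the rRNA gene Rn28s1, named after their values were seen) were past ratio limits of 0.66, which the study's Methods give for lower genes, and 1.5, its counterpart chosen here for higher genes. Subunits differed little in their medians over probes, at 0.04 for the large subunit (93 probes), 0.01 for the small subunit (64 probes) and -0.04 for the stalk (5 probes). These values are near 0 relative to the scaling, and the signs of the large and small subunit medians flipped to -0.02 and -0.05 under cyclic loess.

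**Figure D2:**
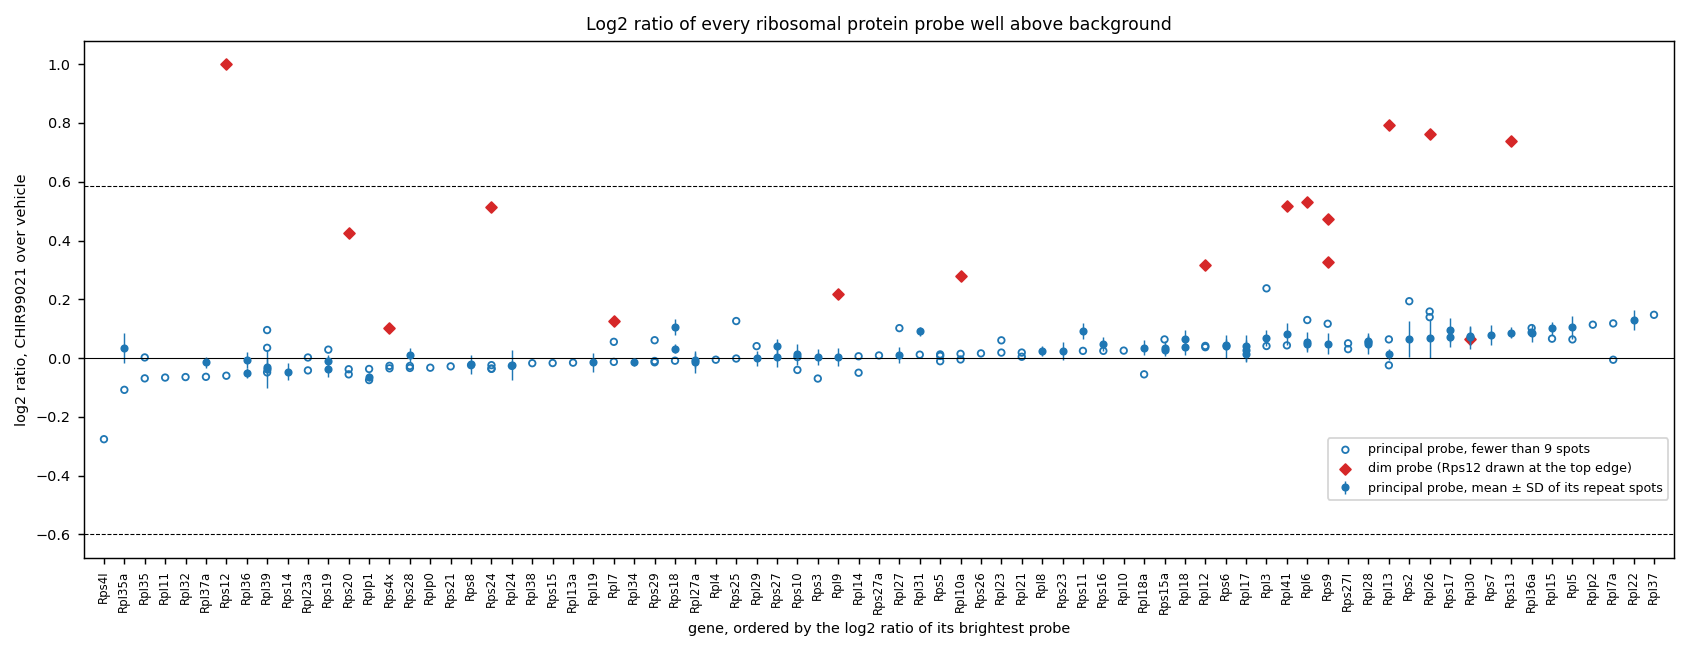
Log2 ratio of CHIR99021 over vehicle for each of the 165 probes well above background, with the 77 genes ordered by the ratio of their brightest probe. Filled blue points are principal probes with at least 9 repeat spots and bars are the SD over those spots, open blue points have fewer spots, red diamonds are dim probes, and dashed lines mark ratios of 0.66 and 1.5. The blue points form a flat band between -0.28 and 0.24, and every red diamond lies above 0.

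Repeat spots show the spot-to-spot part of the measurement error in this narrow spread. Of the member probes, 64 were printed 10 times on each array and 110 once. Among the 62 with at least 9 spots left after outliers were removed, the SD of the log2 ratio over spots had a median of 0.028 (from 0.014 to 0.066). The means of these 62 probes ran from -0.06 to 0.13 with an SD of 0.044, which was wider than the median SE of 0.009 of a probe over its spots. The lowest and highest of these means were those of probes of Rplp1 and Rpl22. At each of them the error that Feature Extraction gives was 0.20 on the log2 scale of the ratio. Spots on the later rows of the array differed from those on the earlier rows by a median of -0.01. Among 53 genes with at least 2 principal probes, the ratios of a gene spanned a median of 0.04, and the pooled SD within genes, 0.044, was close to the SD of 0.047 between gene means. In 25 of these genes all principal probes lay above 0, in 9 all lay below 0, and in 19 they lay on both sides. Under the 5 alternatives with a median below 0 the balance turned, with 4 to 10 genes above, 22 to 30 below and 16 to 21 on both sides. Under median scaling 37 lay above, 2 below and 14 on both sides. Under spike-in scaling these were 41, 0 and 12, and with normexp 20, 10 and 23. These spots and probes share 1 RNA sample and 1 array a condition, so their spread covers neither the cells nor a repeat of the labelling and hybridisation.

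Under the scaling used here the small ratios followed signal, and the trend is given only for it. In the authors' table Rpl22, at 45808 on the vehicle array, had a log2 ratio of 0.0061 in place of 0.13. There Rplp2, at 171120, had 0.10 in place of 0.11. Under cyclic loess Rpl22 and Rplp2 had 0.071 and 0.054. Across the 149 principal probes the log2 ratio fell with mean log2 signal (Pearson's r = -0.29, Spearman's rho = -0.47, across probes that share their arrays and often their gene). By signal on the vehicle array, the members had a median of 0.06 from 32768 to 65536, 0.00 from 65536 to 131072, and -0.01 above 131072. The other tested probes had medians of 0.06, 0.03 and 0.01 in the same ranges. Within the 53 genes with at least 2 principal probes, the brightest had a lower ratio than the dimmest in 34 and a higher one in 19, with a median difference of -0.023. Rps18, chosen after its values were seen, is one of the 34, and Rpl13 one of the 19, with 53912 and 51093 and a log2 ratio of -0.02 at its dimmest principal probe and 162066 and 163259 and 0.06 at its brightest. At the Rps18 probe with 33024 and 34280 the log2 ratio was 0.11 ± 0.028 (SD over 9 spots), at the probe with 58204 and 57343 it was 0.03 ± 0.015 (SD over 10 spots), and at the probe with 288011 and 275907 it was -0.01. Rpl3 had the widest span of principal probes, 0.20, with signals of 18424 and 20935 and a log2 ratio of 0.24 at its dimmest and 0.04 at its brightest.

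The highest ratios at the brightest probe of a gene were small. Rpl37 headed the order with signals of 44.8 and 47.8 and a log2 ratio of 0.15, at its only probe, which was far dimmer than any other principal probe. Rpl22, which has a paralog able to replace it, had 45808 and 48306 and a log2 ratio of 0.13 ± 0.034 (SD over 10 spots). For Rpl7a the signals were 103605 and 108378 and the log2 ratio 0.12, while its other probe had 84558 and 81187 and -0.01. The order within this top group thus depended on the probe. Rplp2, a stalk protein, had 171120 and 178459 with a log2 ratio of 0.11. Rpl5, which with Rpl11 can bind and inhibit Mdm2, had 65322 and 67694 with 0.10 ± 0.040 (SD over 10 spots). Rpl15, mutated in some families with Diamond-Blackfan anaemia, had 50744 and 52441 with 0.10 ± 0.022 (SD over 10 spots). Rpl36a and Rps13 completed the 8 highest, each at 0.09. All 8 had a higher signal on the CHIR99021 array than on the vehicle array. Their sizes also depended on the scaling. In the authors' table the log2 ratios were 0.18 for Rpl37, 0.0061 for Rpl22, 0.083 for Rpl7a and 0.10 for Rplp2. They were 0.036 for Rpl5, 0.0088 for Rpl15, 0.019 for Rpl36a and 0.011 for Rps13.

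The lowest ratios below Rps4l were as small. Rpl35a, another gene of Diamond-Blackfan anaemia, had 70410 and 62969 with a log2 ratio of -0.11 at its brightest probe, and 61574 and 60751 with 0.03 ± 0.051 (SD over 9 spots) at its other probe. Rpl35 had 209059 and 192094 with -0.07 at its brightest probe, and 183492 and 177133 with 0.00 at its other probe. Rpl11, the partner of Rpl5 at Mdm2, had 153552 and 141360 with -0.07. Rpl5 and Rpl11 thus lay on opposite sides of 0, by less than the span of the probes within Rpl3. Rpl32, Rpl37a, Rps12 and Rpl36 followed at -0.06, -0.06, -0.06 and -0.05. In the stalk, Rplp0 had 184957 and 174275 with -0.03, and the 3 probes of Rplp1 had 183352 and 172240, 116033 and 107029, and 101741 and 93114, with ratios of -0.04, -0.06 and -0.07. Rplp1 and Rplp2, which form the dimers of the stalk, thus had ratios on either side of 0. Of the 16 genes at both ends, none reached a ratio of 1.5 or 0.66 at its brightest probe.

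**Figure D3:**
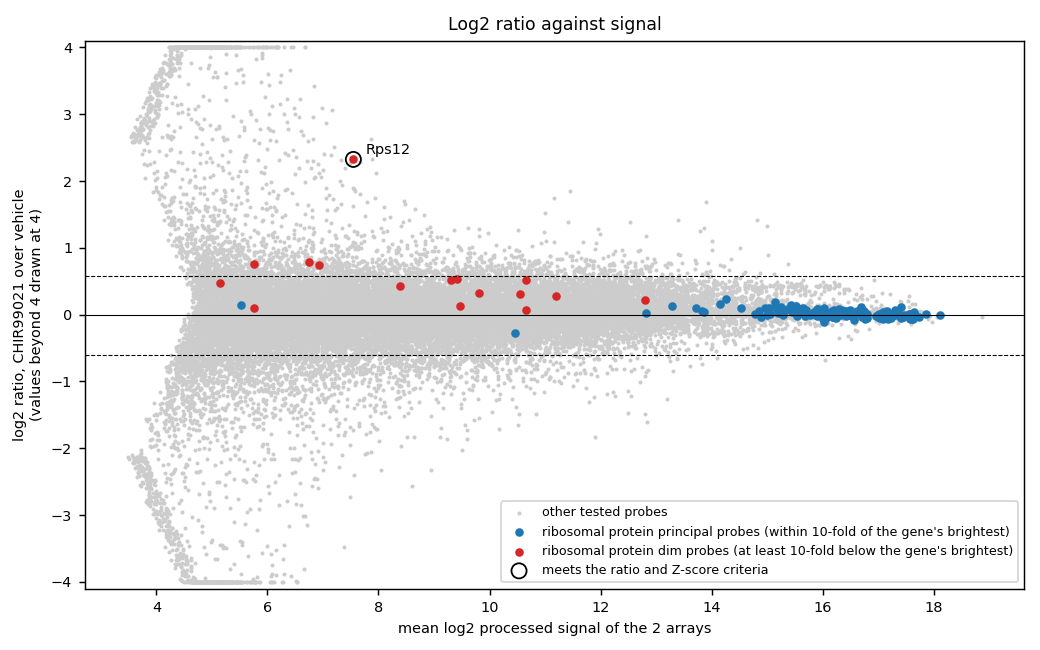
Log2 ratio of CHIR99021 over vehicle against the mean log2 signal of both arrays for the tested probes. Grey points are other genes, blue points principal and red points dim ribosomal protein probes, the circle marks the member probe that met both criteria, and dashed lines are ratios of 0.66 and 1.5. The blue points sit at the right end close to 0, and the red points are spread over lower signals and lie above 0.

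The Methods print the criteria for lower genes as a ratio and a Z-score no higher than 0.66 and 2.0. The Z-score was read here as at least 2.0 in size and below 0, and was taken against the 500 probes nearest in mean signal. They give none for higher genes, for which a ratio of at least 1.5 with a Z-score of at least 2.0 was used here. No member was called lower, against 2.72% of all tested probes. One of the 165 measured member probes was called higher, against 2.35% of all tested probes. By the ratio alone 0 members were lower and 4 were higher, against 9.68% and 8.24% of all tested probes. The called probe was that of AK132208 for Rps12, with a log2 ratio of 2.32, a ratio of 5.00 and a Z-score of 4.56. With normexp background correction its log2 ratio was 1.65. The RefSeq probe of Rps12 had a log2 ratio of -0.06. The called probe is a single spot past the middle row of the array, and the SD of its pixels was 0.170 of the mean on the vehicle array and 0.358 on the CHIR99021 array. The part of this pixel spread in the call was not tested. The other members past the ratio alone were dim probes of Rpl13, Rpl26 and Rps13.

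All 16 dim probes had a higher scaled level after CHIR99021. Their log2 ratios ran from 0.06 to 2.32 with a median of 0.45, a ratio of 1.37, whereas the principal probes had a median of 0.01. In 15 of the 16, the dim probe had a higher ratio than the brightest probe of the same gene, by a median of 0.46 over the 15. Of the 16, 10 were named for Ensembl transcripts, 2 for RefSeq mRNAs and 4 for other records, whereas 130 of the 149 principal probes were named for RefSeq mRNAs. The same class was built for all other genes. Their 3002 dim probes of 2351 genes had a median log2 ratio of 0.07, and 57.6% of them lay above 0. The class was noticed in these values, so the contrast is a description.

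**Figure D4:**
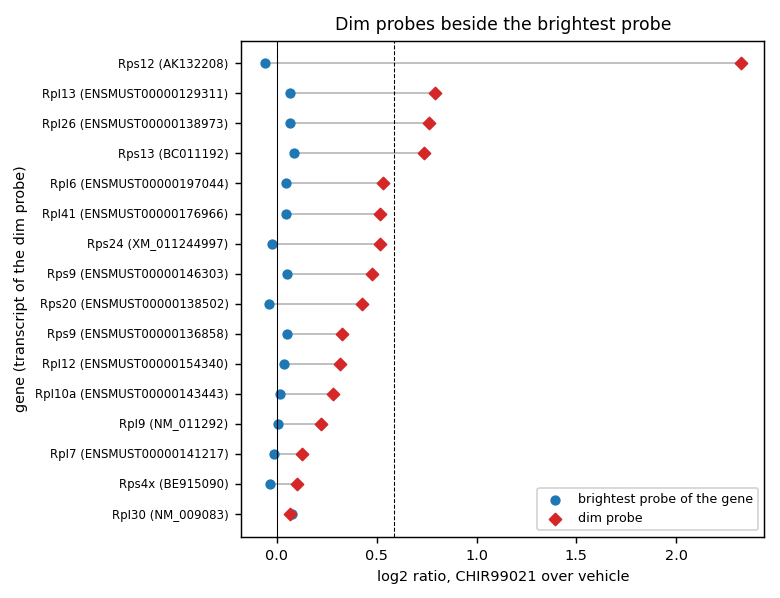
Log2 ratio of CHIR99021 over vehicle at each of the 16 dim probes (red diamonds) and at the brightest probe of the same gene (blue points), with the record each dim probe is named for. The dashed line is a ratio of 1.5. Every diamond lies above 0, and all but that of Rpl30 lie to the right of their blue point.

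A ratio of 1.5 was passed by 4 dim probes, and with normexp background correction only by that of Rps12. Besides Rps12, the probe of ENSMUST00000129311 for Rpl13 (chr8:125628690-125628749) had signals of 83.5 and 139 with a log2 ratio of 0.79, while the brightest Rpl13 probe had 162066 and 163259 with 0.06. The probe of ENSMUST00000138973 for Rpl26 (chr11:68720418-68720477) had 42.4 and 69.4 with 0.76, while its brightest probe had 64391 and 64999 with 0.07. The probe of BC011192 for Rps13 (chr7:123475113-123475172) had 96.2 and 155 with 0.74, while the other Rps13 probe had 79849 and 81722 with 0.09 ± 0.019 (SD over 10 spots). In each of these genes the probes thus differed by more than 0.58 in log2 ratio. None of the 3 reached a Z-score of 2.0, and each rests on 1 spot an array.

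The other dim probes stayed below a ratio of 1.5. Rpl6 had signals of 576 and 801 at its dim probe, with a log2 ratio of 0.53. Rpl41, which encodes the shortest ribosomal protein, had 1378 and 1902 with 0.52. Rps24 had 538 and 741 with 0.52. All 3 lay just inside the ratio of 1.5. Rps9 had 2 dim probes, at 818 and 989 with 0.33 and at 30.7 and 41.1 with 0.47. Rpl12 had 1366 and 1639 with 0.32, and Rpl10a had 2178 and 2547 with 0.28. Rpl9 had the brightest dim probe, 6769 and 7598, with 0.22. The smallest ratios were those of Rpl7 at 688 and 723 with 0.13, Rps4x at 53.0 and 54.8 with 0.10, and Rpl30 at 1607 and 1620 with 0.06. The error that Feature Extraction gives for these signals was 0.20 to 0.40 on the log2 scale of the ratio, so that 8 of the 16 values were singly within 2 such errors of 0. The 9 dim probes with a vehicle signal of at least 300 had a median of 0.32, and all 9 lay above 0.

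The other genes of the pathway were described from lists chosen with earlier results known. The list for ribosome synthesis held 30 genes, most of them assembly factors, with Polr1a, Polr1b, Polr1c, Rrn3 and Ubtf of rRNA transcription and Myc. They lay mostly above 0 on these arrays, with a median log2 ratio of 0.50 over 57 probes against 0.03 for the member probes, and 53 of the 57 lay above 0 under every scaling tried, against 53.3% of all tested probes under the scaling used here. Of the 57 probes, 11 met the criteria for higher, against 2.35% of all tested probes, and none for lower, against 2.72%. At the brightest probe, Nolc1, Nop56, Rrp1b, Rrp9 and Rrs1 met them. Rrp9, a subunit of the U3 snoRNP, was highest, with 1359 and 2208 and a log2 ratio of 0.75. Nop56, a core protein of box C/D snoRNPs, had 24630 and 36413 with 0.62. Myc, the transcription factor, was lowest, with 2418 and 2097 and -0.15. The genes of this list were dimmer than the members, with a median vehicle signal of 4265 at the brightest probe against 111456 for the members, and the part of signal in the difference was not tested. Other tested probes with vehicle signals from 1024 to 8192 had a median log2 ratio of 0.05.

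A list of 30 other genes, drawn up for TOP mRNAs, held mostly translation factors and also genes of other roles, such as Vim, Tomm20, Impdh2, Nap1l1 and the non-coding Gas5. It had a median log2 ratio of 0.11 over 69 probes, and 61 lay above 0. The median was 0.052 under cyclic loess, 0.053 without scaling and 0.026 in the authors' table, with 46 to 47 above 0. Of all tested probes 53.3% lay above 0 under the scaling used here. None of the 69 met the criteria, against 2.35% of all tested probes for higher and 2.72% for lower. Eif4a2, a translation initiation helicase, was highest with 7006 and 9185 and 0.44, and Hnrnpa1, an RNA-binding protein, was lowest with 20212 and 17017 and -0.20. Of the ribosomal protein genes outside the name rule, Rpsa had 174784 and 159627 with -0.08. The 77 mitochondrial ribosomal protein genes had a median of 0.06 over 108 probes, which was 0.010 under cyclic loess, 0.0063 without scaling and -0.0070 in the authors' table. Among them 1 probe met the criteria for higher, that of ENSMUST00000138457 for Mrpl38 with 144 and 275, and none for lower, against the same 2.35% and 2.72%. At the brightest probe of genes well above background on both arrays, Mrps26 was highest with 13614 and 17152 and a log2 ratio of 0.39, and Mrpl34 was lowest with -0.37. Mrpl35 was not well above background on the vehicle array, with 24.4 and 48.9. Its ratio of 2.08 thus rests on a vehicle value that was not detected, and is not a lower limit. With normexp its log2 ratio was 0.35.

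**Figure D5:**
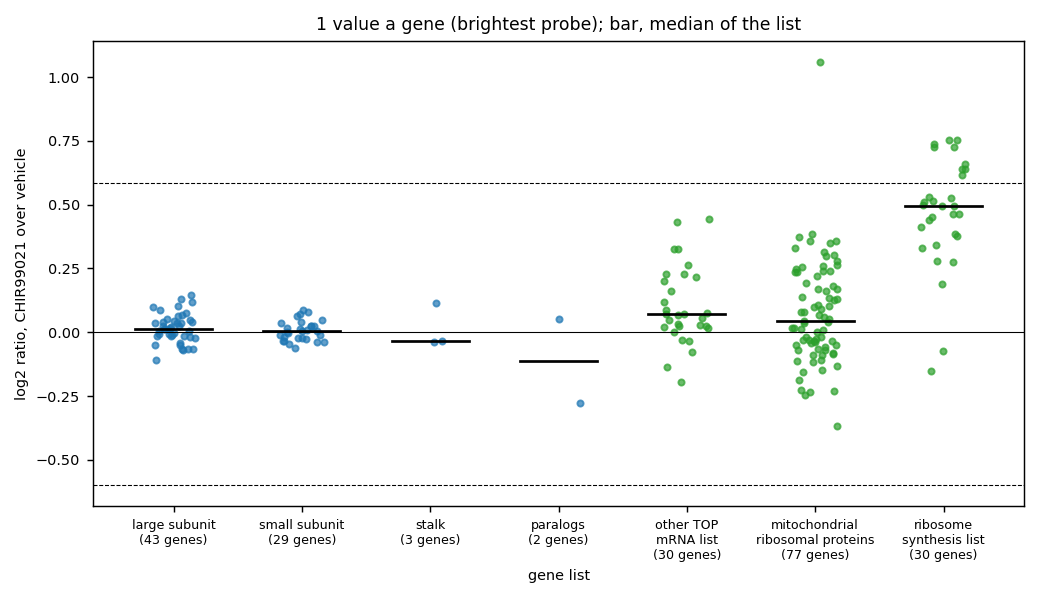
Log2 ratio of CHIR99021 over vehicle at the brightest probe of each gene, for the ribosomal protein genes (blue, by subunit) and 3 neighbouring lists (green). Each point is a gene, the bars are medians and the dashed lines are ratios of 0.66 and 1.5. The blue genes lie in a band around 0, and 28 of the 30 genes of ribosome synthesis lie above 0. The highest mitochondrial point is Mrpl35, which was not well above background on the vehicle array.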

How the data were processed

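Total RNA of mDE6 cells was compared between 1 vehicle and 1 CHIR99021 array. The authors deposited spot intensity from Feature Extraction (10.7.1.1 per the file headers, 9.5.1.1 per the labels), background-subtracted and not normalized between arrays, and a table of normalized intensity whose method is not given in the sources used here. The Methods name a human array, whereas the file headers give a mouse design on build mm9. The members and lists were chosen with earlier results of these data known.

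Each array's 75th percentile, taken over all non-control spots, was subtracted on the log2 scale (Python 3.11.15, pandas 2.3.3, numpy 2.4.6). Outlier spots were left out, repeat spots were averaged, and 28066 probes well above background (at least 0.5 of their spots) on at least 1 array were tested. The Z-score used the 500 probes nearest in mean signal. The limits for higher genes mirror those for lower genes, where the Z-score, printed without a minus sign in the Methods, was read as negative. No statistical test was made, and the number of arrays limits the precision. The named genes were the called members, the 8 highest and 8 lowest ratios at the brightest probe, stalk genes and paralogs with their partners, genes with no measured probe, genes whose probes differed by over 0.58 in log2 ratio, and the ends of each other list. The steps were tested on simulated data. Alternatives used limma 3.58.1 in R 4.3.3 for cyclic loess and normexp (offset 50), other scalings, the deposited normalized table, other filters, rows and Z-scores. Sequences of starts are from RefSeq, and figures were drawn with matplotlib 3.10.9.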

Additional observations from a re-analysis of the deposited data

How the results depend on the processing

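The Rps12 probe of AK132208 was called under every alternative run for the calls but 2. It was absent from the earlier rows, where 0 members were called, and left out by choice in a setting added after seeing the data, with 0. A Z-score from the median and MAD added the dim Rpl13 probe, for 2. By the ratio alone normexp gave 1 member probe, the later rows 1, and no filter on dim probes 9, in place of 4. The median of the member probes, 0.03, was -0.017 under quantile normalization, 0.057 under median scaling, -0.034 under cyclic loess, 0.065 under spike-in scaling, -0.028 without scaling, -0.026 with a percentile taken only over detected probes and -0.028 in the authors' normalized table, and lay at most 0.03 below the median of all tested probes in each. Under cyclic loess, no scaling and the authors' table, in that order, the median was -0.023, -0.017 and -0.024 for the large subunit, -0.045, -0.039 and -0.032 for the small subunit, 0.052, 0.053 and 0.026 for the list of other TOP mRNAs, and 0.010, 0.0063 and -0.0070 for mitochondrial ribosomal proteins. For the stalk it was -0.097 under cyclic loess and -0.090 without scaling. The genes of ribosome synthesis had 0.44, 0.44 and 0.43 in the same order, 0.46 with normexp, and, added after seeing the data, 0.43 (quantile), 0.53 (median), 0.54 (spike-in) and 0.45 (percentile over detected probes), so that their direction held in each. The dim member probes, also described after seeing the data, had medians from 0.33 (normexp) to 0.49 (spike-in), with all 16 above 0 under each of the 8 alternatives. Defined as at least 5-fold below the brightest probe they were 23, all above 0, with 0.28. Of 33 named values under 5 alternatives each, 15 of 165 changed sign, all with a size of at most 0.07. The cause was not tested for any of these shifts. No paired analysis was possible because there was a single array of either group, so no replicate could be left out.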

Other observations

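Related genes outside the name rule gave further values. Rpl22l1, the paralog of Rpl22, had signals of 15668 on the vehicle array and 19682 on the CHIR99021 array and a log2 ratio of 0.38, against 0.13 for Rpl22. Rpl36al, the paralog of Rpl36a, had 15737 and 16265 with 0.10 at one probe and 8404 and 9456 with 0.22 at the other. Rpl37rt, named by the array as a retrotransposed copy of Rpl37, had 230178 and 227664 with 0.04, whereas the only probe named Rpl37 had 44.8 and 47.8. The sequences of these genes were not compared here, and how far a probe also reads the related gene was not tested.

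The 28S rRNA probe Rn28s1, chosen after its value was seen, had signals of 86920 and 52580 and a log2 ratio of -0.67. The 52 member probes with vehicle signals from 65536 to 131072 had a median of 0.00 and an SD of 0.045. The RefSeq positions of 4 genes (Rpl13, Rpl36, Rps27 and Rps29) were on another chromosome than the positions that the files give to 7 of their probes. These 7 probes had vehicle signals of 40606 to 112412 and log2 ratios of -0.01 to 0.06.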
